A study of Mus musculus with 9 samples.

Results

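The genes described here are 42 mouse genes of Wnt signalling, chosen by name with earlier results of these data known. They are 15 Wnt ligands, 10 Frizzled receptors, 5 R-spondins and Lgr receptors, the beta-catenin gene Ctnnb1, 4 Tcf/Lef factors and 7 inhibitors. All 42 matched 1 of the 21883 protein-coding genes used from RefSeq on assembly GRCm38.p6, which corresponds to mm10. Chromatin bound by Sox2 was precipitated and sequenced (ChIP-seq), and each binding region is listed with a summit, the position of its highest enrichment. A gene was counted as near Sox2 when its span, extended by 50 kb on each side, held a summit. By that rule 11 of the 42 genes were near a summit in at least 1 list, and 0 in all 3 lists.

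The 3 Sox2 ChIP libraries came from lung epithelial cells of the C57BL/6 strain, aged 8 weeks. The first was wildtype, the next carried ectopic Sox2, and the last carried ectopic Sox2 together with a deletion of Nkx2-1 (called the Nkx2-1 deleted library here). Each condition has 1 Sox2 library, so differences between conditions lack a replicate check, and none is given a p-value. The driver of ectopic Sox2, the Nkx2-1 allele and any pooling of animals were not stated in the labels, and a peak list carries no expression value against which the labelled genotypes or cell type could be checked.

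Wnt ligands are secreted lipid-modified proteins that bind Frizzled receptors and their co-receptors on the cell surface. In the canonical branch this stabilises beta-catenin, which enters the nucleus and acts with the Tcf/Lef factors on target genes. R-spondins and Lgr receptors raise the response, while secreted, membrane or intracellular inhibitors lower it. In the lung, Wnt signalling takes part in specifying the Nkx2-1-expressing progenitors of the embryonic foregut and in maintaining alveolar progenitors in the adult. Sox2 is expressed in the conducting airways and the oesophagus, and Nkx2-1 is needed for lung epithelial identity.

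Of the 18 listed summits near these genes, 1 had most of its region within sequence used here. That sequence is shown because it is the only bound stretch of the module that can be read. In the Nkx2-1 deleted library, the summit counted for Axin2 lay 29.9 kb beyond the 3′ end of that gene and 25 bp before the start of Gm36876, a long noncoding RNA gene. The 300 bases below are the RefSeq promoter window of Gm36876 (GRCm38.p6, chr11:108980489-108980788, plus strand), which held 211 of the 224 bp of the listed region. Capitals mark the summit and 10 bases on each side of it.
Gm36876: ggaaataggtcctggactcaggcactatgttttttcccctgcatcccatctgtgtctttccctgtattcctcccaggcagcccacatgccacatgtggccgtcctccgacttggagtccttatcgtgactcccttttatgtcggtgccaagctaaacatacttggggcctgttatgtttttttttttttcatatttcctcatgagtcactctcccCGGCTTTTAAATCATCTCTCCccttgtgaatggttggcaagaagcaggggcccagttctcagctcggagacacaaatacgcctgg
On both strands, this window held 0 matches to 7 short motifs: the Sox motif ACAAT with its longer forms ACAATG and ACAATGG (each holds the shorter ones), the Tcf/Lef motifs ATCAAAG and TTCAAAG, and the Nkx2-1 motifs CAAGTG and CTTGAG. Of all 32851 promoter windows of that length, 31.0% held ACAAT, 12.6% ACAATG, 3.66% ACAATGG, 3.73% ATCAAAG, 5.14% TTCAAAG, 13.6% CAAGTG and 15.9% CTTGAG. The GC content of the window was 49.7%, beside a median of 52.7% over all windows.

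The lists differ in length and depth. The Nkx2-1 deleted list held 2589 summits, the wildtype list 552 and the ectopic Sox2 list 229. The mean ChIP coverage, recovered from the listed values, was 1.45, 0.963 and 0.764 fragments per position in that order, a depth with Nkx2-1 deletion of 1.90 times that with ectopic Sox2 and 1.51 times that of wildtype. At the genome-wide control background, a position needed 15 fragments with Nkx2-1 deletion, and 10 in either other library, to reach the lowest −log10 p in its own list.

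Sox2 summits near Wnt genes were found mostly in the Nkx2-1 deleted library, which also has the longest list (2589 summits, beside 552 and 229). There, 10 of the 42 genes (23.8%) were near a summit: the ligands Wnt5b and Wnt7a, the receptors Fzd1, Fzd4 and Fzd7, the factors Tcf7 and Tcf7l2, and the inhibitors Axin2, Rnf43 and Sfrp1. Of all protein-coding genes, 13.1% were near a summit in that list, a share inside the exact binomial interval of the module's (12.1 to 39.5%). In wildtype 2 of 42 genes (4.76%) were near a summit, Fzd4 and Tcf7, against 2.85% of all protein-coding genes. With ectopic Sox2 alone the count was 1 of 42 (2.38%), Wnt4, against 1.53% of all genes. Fzd4 and Tcf7 were thus near a summit both in wildtype and with Nkx2-1 deletion, and Wnt4 was the 1 gene of the module near a summit with ectopic Sox2 alone but in neither other list. The genes of the module have a median span of 32.5 kb, beside 17.2 kb over all protein-coding genes, and a longer span leaves more room for a summit. Per length of gene window (span plus 50 kb on each side, merged), the module held 2.30 summits per Mb with Nkx2-1 deletion (14 summits, exact Poisson interval 1.26 to 3.85), and all protein-coding windows held 1.18, just under that interval. That interval takes summits as independent, but the 14 lay near 10 genes, with 3 at Wnt5b, 2 at Fzd4 and 2 at Tcf7l2. The genes were also chosen with earlier results of these data known, so the interval is a description and no test of an excess. In wildtype the module held 0.492 per Mb (0.102 to 1.44) beside 0.230, and with ectopic Sox2 0.164 (0.00415 to 0.914) beside 0.102. In wildtype and with ectopic Sox2 the interval includes the value over all windows. All intervals here cover counting error only.

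**Figure D1:**
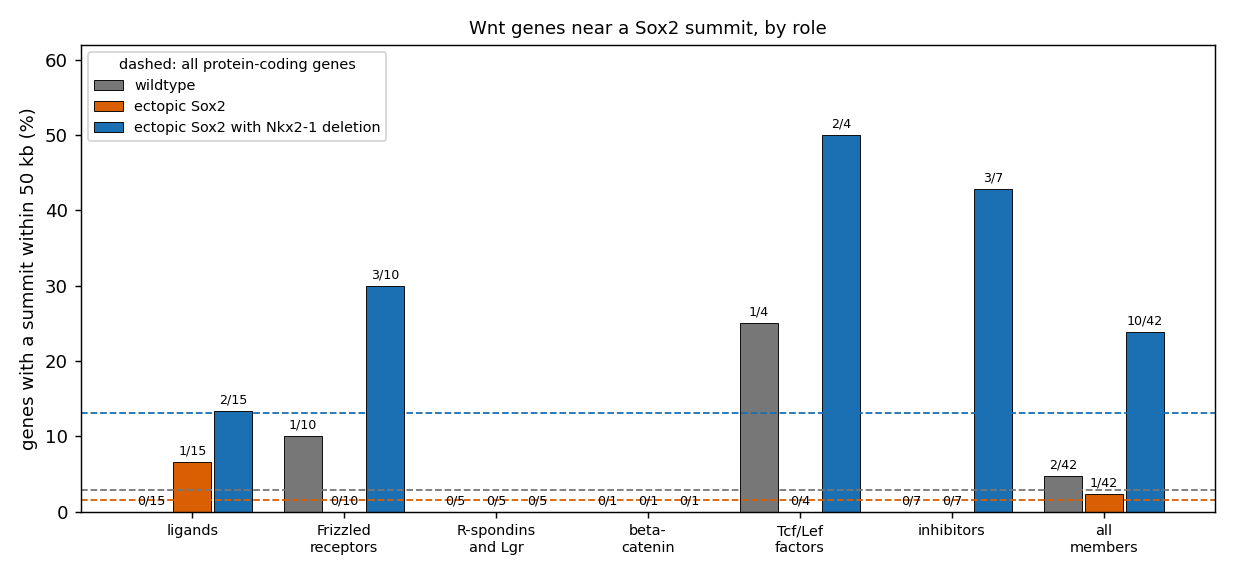
Share of Wnt genes with a Sox2 summit inside the span or within 50 kb (vertical axis, percent), by role and library, with the number of genes printed on each bar and dashed lines at the share of all protein-coding genes in the same list. With Nkx2-1 deletion the bars stand at 2 of 15 ligands, 3 of 10 Frizzled receptors, 2 of 4 Tcf/Lef factors and 3 of 7 inhibitors, and no bar rises for the R-spondins and Lgr receptors or for beta-catenin.

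By role, the share near a summit with Nkx2-1 deletion ran from 0 of 5 R-spondins and Lgr receptors and 0 of 1 for beta-catenin to 2 of 4 Tcf/Lef factors. The ligands had 2 of 15 (13.3%), which is close to the 13.1% of all genes. The Frizzled receptors had 3 of 10 (30.0%) and the inhibitors 3 of 7 (42.9%). Of 20 further Wnt inhibitors, from a separate gene list described below, 0 were near a summit with Nkx2-1 deletion. The inhibitor share therefore depends on which inhibitors were placed in the module. Each role of the module holds few genes, and no role was tested against another. Spans also differ by role: the median was 4.59 kb for Frizzled receptors, 26.7 kb for ligands, 43.5 kb for inhibitors, 96.6 kb for R-spondins and Lgr receptors and 138 kb for Tcf/Lef factors. Per Mb of window, the Frizzled receptors held 3.52 summits (0.959 to 9.01), the Tcf/Lef factors 3.31 (0.683 to 9.68), the inhibitors 2.65 (0.546 to 7.74) and the ligands 2.18 (0.595 to 5.59). These intervals overlap throughout, and each rests on 3 or 4 summits. Each also includes the 1.18 per Mb of all protein-coding windows. The R-spondins and Lgr receptors held 0 summits in 0.962 Mb, a count whose interval reaches 3.84 per Mb.

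Counts fell under stricter rules. Within 10 kb, the Nkx2-1 deleted library kept 5 of the 42 genes (Wnt5b, Wnt7a, Tcf7, Tcf7l2 and Rnf43) against 6.46% of all genes, wildtype kept 1 (Tcf7, against 1.37%) and ectopic Sox2 kept 1 (Wnt4, against 0.736%). When a summit needed a −log10 q of 5 or more, 8 of 42 genes remained with Nkx2-1 deletion (8.83% of all genes) and 0 in wildtype (1.87%) and with ectopic Sox2 (1.18%). With each list shortened to the 229 summits of highest −log10 p, 2 of 42 genes were near a summit with Nkx2-1 deletion (Wnt7a and Fzd4, against 1.48%), 1 with ectopic Sox2 (Wnt4, against 1.53%) and 0 in wildtype (against 1.41%).

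**Figure D2:**
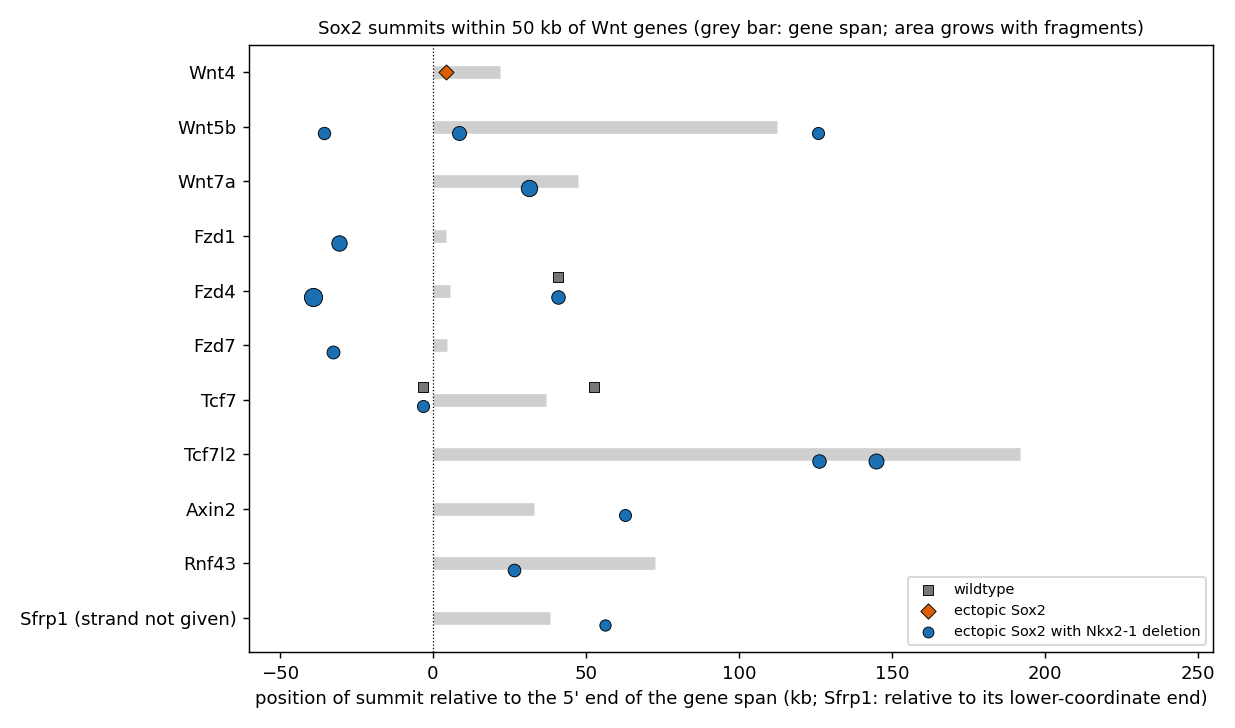
Position of each listed summit along the 11 Wnt genes (horizontal axis, kb from the 5′ end of the gene span, or from the lower-coordinate end for Sfrp1), with grey bars for gene spans, symbols for the 3 libraries and symbol area growing with ChIP fragments. The Frizzled summits all lie outside the short gene spans, those of Wnt7a, Tcf7l2 and Rnf43 lie within them, and Fzd4 and Tcf7 each carry a wildtype and an Nkx2-1 deleted summit at nearly the same place.

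Wnt7a, a ligand of epithelial cells, had the highest-ranked summit of the module. It lay inside the gene in the Nkx2-1 deleted library (chr6:91379836-91380156), 31.4 kb downstream of the start site, with a fold enrichment of 11.7, a −log10 q of 20.2 and 64 ChIP fragments (exact Poisson interval 49.3 to 81.7). Fold enrichment is the authors' own value per summit, the ChIP signal over the local control background. That summit ranked 39 of 2589 by q, above 98.5% of its list. No other protein-coding gene lay within 50 kb of it. The nearest summit to Wnt7a was 3224 kb away in wildtype and 6453 kb away with ectopic Sox2.

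Wnt5b, a ligand best known for signalling without beta-catenin, had 3 summits with Nkx2-1 deletion, the most of any gene in the module. The strongest by q lay 13.5 kb beyond its 3′ end (chr6:119418903-119419122), with a fold of 7.70, a −log10 q of 7.13 and 27 fragments (17.8 to 39.3), and it was closer to Adipor2, an adiponectin receptor gene, at 1.32 kb. Another, inside the gene, had 42 fragments (30.3 to 56.8) but a fold of 3.76, since the control background there was 6.51 times the genome-wide level. The third lay 35.6 kb upstream, inside Erc1, with 29 fragments (19.4 to 41.6) and a fold of 4.74. Of the 3, 1 passed a −log10 q of 5. The nearest summit to Wnt5b was 3054 kb away in wildtype and 6821 kb away with ectopic Sox2.

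Wnt4, a ligand of epithelial and mesenchymal development, was the only gene of the module near a summit with ectopic Sox2 alone. The summit lay inside the gene (chr4:137281724-137281948), 4.19 kb downstream of the start site, with a fold of 5.92, a −log10 q of 3.28 and 17 fragments (9.90 to 27.2). It ranked 188 of 229 by q, so most summits of that list were stronger. The nearest summit to Wnt4 was 342 kb away with Nkx2-1 deletion and 4421 kb away in wildtype. At equal enrichment, the 17 fragments correspond to 32.3 at the depth of the Nkx2-1 deleted library.

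The other 12 ligands had no summit within 50 kb in any list. Wnt16 came closest in wildtype, at 63.6 kb. With Nkx2-1 deletion, Wnt9a was 126 kb and Wnt7b 130 kb from a summit, and Wnt7b was at 130 kb in wildtype too. Wnt2, a ligand of the lung mesenchyme, was 238 kb from a summit with Nkx2-1 deletion and 258 kb in wildtype, and Wnt5a lay 3142 kb away with Nkx2-1 deletion, the farthest of the module in that list. Neighbouring ligand genes are not separate observations: Wnt6 and Wnt10a lie 6.70 kb apart, and Wnt3a and Wnt9a 16.1 kb apart.

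The Frizzled receptors are seven-pass membrane proteins that bind Wnt ligands, and the few summits near them all lay outside the gene spans. With Nkx2-1 deletion, 4 summits lay near Fzd1, Fzd4 and Fzd7, each between 30.5 and 39.0 kb from the gene span. Within 10 kb, 0 of 10 Frizzled genes had a summit, which is close to the 6.46% of all genes. Fzd4, a receptor for Wnt ligands and for Norrin, had a summit on either side of the gene. The upstream one (chr7:89365090-89365608), inside Tmem135, had the most fragments of the module, 84 (67.0 to 104), with a fold of 6.09, a −log10 q of 13.4 and a control background of 8.13 times the genome-wide level. The downstream one (chr7:89445268-89445506), for which Fzd4 was the nearest protein-coding gene, had 38 fragments (26.9 to 52.2), a fold of 8.54 and a −log10 q of 10.3.

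The downstream Fzd4 region was also listed in wildtype, with its summit 38 bp away, 19 fragments (11.4 to 29.7), a fold of 5.02 and a −log10 q of 3.94. Divided by the depth ratio, the Nkx2-1 deleted library held 1.33 times the wildtype fragments there (exact conditional binomial interval 0.746 to 2.44), an interval that includes 1. Without that division the ratio was 2.00 (1.12 to 3.67). With ectopic Sox2 the nearest summit to Fzd4 was 1241 kb away.

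Fzd7, a receptor active in stem and progenitor cells of several epithelia, had 1 summit 32.6 kb upstream (chr1:59449464-59449720), with 33 fragments (22.7 to 46.3), a fold of 8.32 and a −log10 q of 8.18. It was the only protein-coding gene within 50 kb of that summit. Fzd1 had 1 summit 30.5 kb upstream (chr5:4788545-4788911), with 55 fragments (41.4 to 71.6) but a fold of 4.86 over a control background of 6.51 times the genome-wide level, and Cdk14 was closer at 14.7 kb. In wildtype and with ectopic Sox2 the nearest summits to Fzd1 lay 125 kb and 258 kb away, and both were 4897 kb from Fzd7. Fzd3 and Fzd5 lay just outside the window with Nkx2-1 deletion, at 74.0 kb and 71.6 kb. Fzd2, Fzd6, Fzd8, Fzd9 and Fzd10 were between 695 and 2249 kb from a summit in that list.

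**Figure D3:**
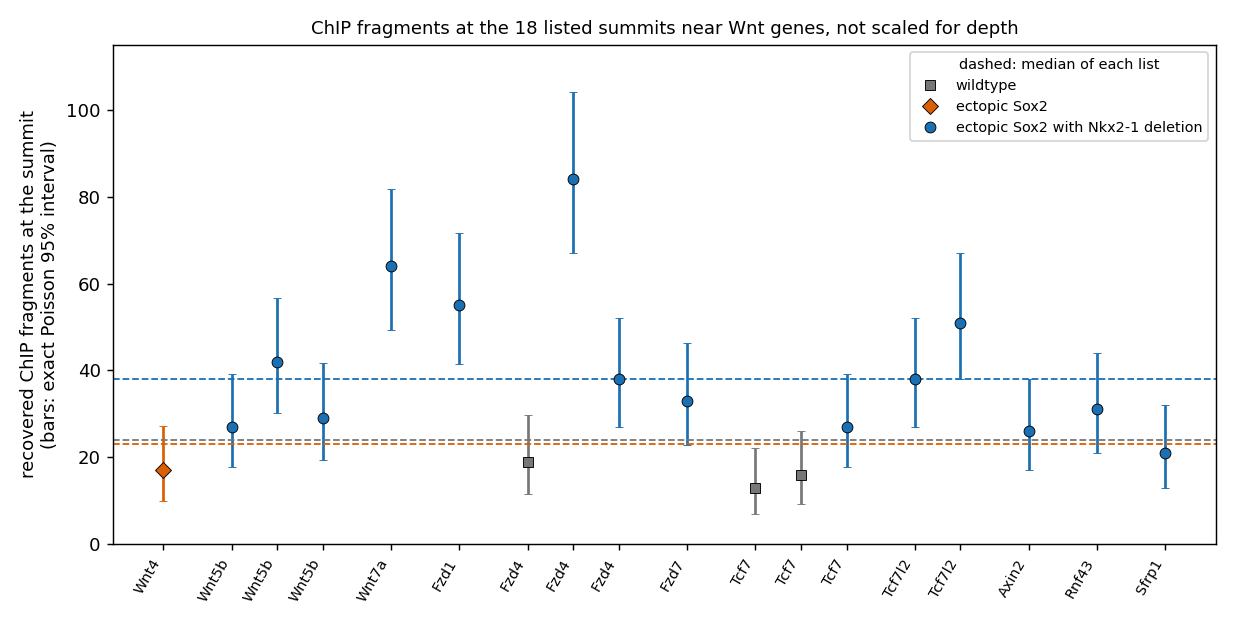
Recovered ChIP fragments (vertical axis, not scaled for depth) at each of the 18 listed summits near Wnt genes, with exact Poisson 95% intervals and a dashed line at the median of each list. The upstream Fzd4 summit at 84 and the Wnt7a summit at 64 stand highest, and the 3 wildtype summits and the Wnt4 summit lie below the medians of 24 and 23 fragments of their lists.

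The Tcf/Lef factors bind DNA and carry beta-catenin to target genes. Tcf7, which encodes TCF1, had the summit closest to a gene end among those outside a gene span. It lay 3.54 kb upstream of the nearer start site in the Nkx2-1 deleted library (chr11:52286424-52286683), with 27 fragments (17.8 to 39.3), a fold of 7.31 and a −log10 q of 6.60. Wildtype listed the same region, its summit 44 bp away, with 16 fragments (9.15 to 26.0), a fold of 6.43 and a −log10 q of 4.50. The depth-scaled ratio of the Nkx2-1 deleted library to wildtype was 1.12 (0.582 to 2.22), which includes 1. A further wildtype summit, 15.9 kb beyond the 3′ end and inside Skp1, rested on 13 fragments (6.92 to 22.2) with a −log10 q of 2.15. With ectopic Sox2, the nearest summit was 9665 kb from Tcf7.

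Tcf7l2, which encodes TCF4, had 2 summits inside the gene with Nkx2-1 deletion, 27.2 kb and 8.63 kb upstream of the nearer start site in the RefSeq promoter table. The first (chr19:55868004-55868230) had 38 fragments (26.9 to 52.2), a fold of 6.57 and a −log10 q of 7.39. The other had 51 fragments (38.0 to 67.1) and a fold of 4.52, with a control background of 6.51 times the genome-wide level. Chromosome 19 held 5.41% of the summits with Nkx2-1 deletion, 2.72% in wildtype and 0.437% with ectopic Sox2, and the part of that difference in the Tcf7l2 count was not tested. The nearest summit to Tcf7l2 was 8012 kb away in wildtype and 26914 kb away with ectopic Sox2. Lef1 and Tcf7l1, the other two factors, were 262 kb and 97.8 kb from a summit with Nkx2-1 deletion.

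The inhibitors near a summit were found with Nkx2-1 deletion only, each with 1 summit. In wildtype and with ectopic Sox2 the count was 0 of 7, close to the 2.85% and 1.53% of all genes. Axin2, a scaffold of the beta-catenin destruction complex and itself a Wnt target, had 26 fragments (17.0 to 38.1), a fold of 6.00 and a −log10 q of 5.06. Most of the sequence of that region is printed above, and Axin2 was the only protein-coding gene within 50 kb of its summit. Rnf43, a membrane ubiquitin ligase that removes Frizzled receptors, had 1 summit inside the gene (chr11:87689539-87689771) with 31 fragments (21.1 to 44.0), a fold of 4.71 and a −log10 q of 3.75. Sfrp1, a secreted Frizzled-related protein that binds Wnt ligands, had 1 summit 17.9 kb from the gene (chr8:23467388-23467619) with 21 fragments (13.0 to 32.1), a fold of 5.43 and a −log10 q of 3.00. Neither other list had a summit within 2295 kb of Axin2, Rnf43 or Sfrp1. Over all genes of the module without a summit, the median distance was 1729 kb in wildtype and 4574 kb with ectopic Sox2.

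Znrf3, a ubiquitin ligase of the same family as Rnf43, was 1111 kb from a summit in each of the 3 lists. Dkk3 lay just outside the window with Nkx2-1 deletion, at 53.8 kb, and Dkk1, a secreted inhibitor of the Lrp co-receptors, at 651 kb. Nkd1 was at 198 kb. Among the genes that raise the response, Lgr5, a marker of epithelial stem cells in several tissues, was 62.3 kb from a summit with Nkx2-1 deletion, Lgr4 178 kb, Lgr6 747 kb, Rspo1 1159 kb and Rspo3 1869 kb. Ctnnb1 was 109 kb away.

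**Figure D4:**
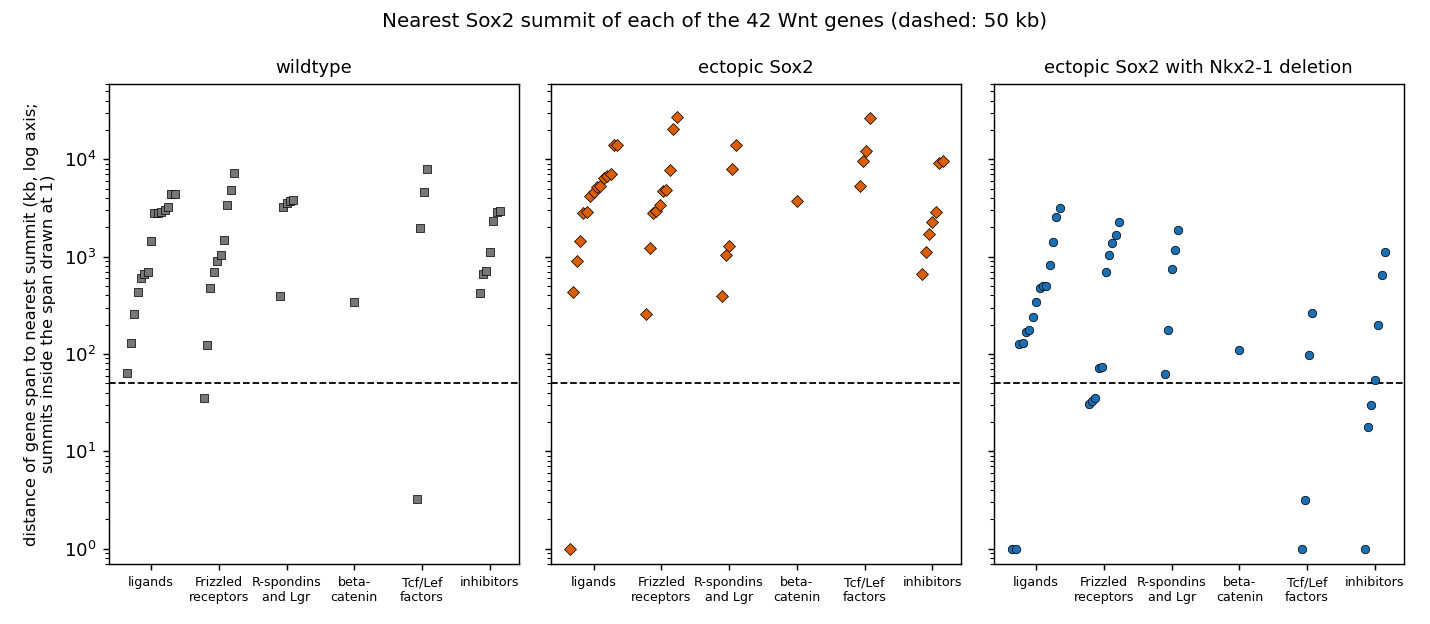
Distance from the span of each of the 42 Wnt genes to the nearest Sox2 summit (vertical log axis, kb, summits inside a gene drawn at 1), by role and library, with a dashed line at 50 kb. With Nkx2-1 deletion 10 genes lie below the line and 5 more between 50 and 100 kb, whereas 2 genes lie below it in wildtype and 1 with ectopic Sox2.

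Near the threshold, the last gene inside 50 kb with Nkx2-1 deletion was Fzd4 at 35.3 kb, and the first outside were Dkk3 at 53.8 kb and Lgr5 at 62.3 kb. The 32 genes without a summit in that list had a median distance of 489 kb to the nearest one (range 53.8 to 3142 kb). The median was 1729 kb over 40 genes in wildtype and 4574 kb over 41 genes with ectopic Sox2, whose lists are shorter.

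The strength of the module's summits is set here beside that of their own list. Wildtype has only 3 such summits and ectopic Sox2 only 1, so no difference between libraries is drawn. The 14 summits with Nkx2-1 deletion had a median fold of 6.05, a median −log10 q of 6.68 and a median of 35.5 fragments, beside 5.73, 5.97 and 38 over the whole list, and 8 of 14 exceeded the list's median q. The control background at these summits had a median of 2.44 times the genome-wide level (range 1.00 to 8.13), beside 3.25 over the list. In wildtype, the 3 summits had a median of 16 fragments and a median −log10 q of 3.94, beside 24 and 5.64 over that list, and 0 of 3 exceeded its median q. The Wnt4 summit, with ectopic Sox2, had a −log10 q of 3.28 beside a list median of 6.04. With Nkx2-1 deletion, 5 of the 14 lay inside a gene of the module, 5 upstream, 3 downstream and 1 beside Sfrp1, whose strand was not used. A gene of the module was the nearest protein-coding gene to 10 of the 14.

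The depth of each library was then set against the summits found with Nkx2-1 deletion. If each had the same enrichment at the depth, ChIP and control alike, of the library with ectopic Sox2, the expected fragments would give a −log10 p at or above the lowest listed there, 5.47, for 14 of 14 summits. The margin was wide for Wnt7a, at 33.7 fragments and 20.5, and small for the Wnt5b summit inside Erc1, at 15.3 fragments and 5.57. The ectopic Sox2 list held a region at 0 of these 14, and at 4.60% of all Nkx2-1 deleted summits, of which 88.6% would reach that value. At wildtype depth 14 of 14 would reach the lowest listed value, 5.27, and wildtype listed 2 of them (Fzd4 and Tcf7). Of all Nkx2-1 deleted summits, 99.5% would reach that value and 10.5% were listed. The summits entered because the Nkx2-1 deleted library listed them, and nearly the whole list passes, so reaching the value is a description and no test of a difference. The −log10 p depends on control depth too: that of the Wnt5b summit near Adipor2 was 11.5 as listed and 13.3 at wildtype depth. The expected values leave out sampling error, and with 1 library per condition the genotype and the library cannot be told apart.

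**Figure D5:**
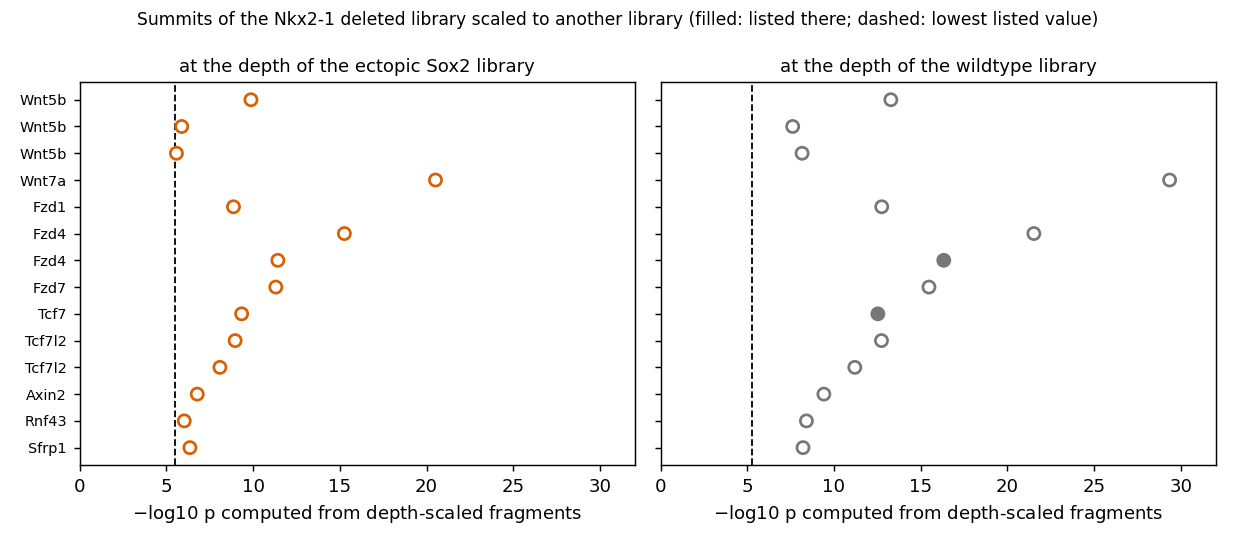
Each point is 1 of the 14 summits near Wnt genes in the Nkx2-1 deleted library, placed at the −log10 p (horizontal axis) that its fragments would give at the depth of the ectopic Sox2 library (left) or wildtype (right), with a dashed line at the lowest listed value of 5.47 or 5.27. Every point lies to the right of the line in its panel. None is filled in the left panel, and the filled points in the right panel are the Fzd4 and Tcf7 summits that wildtype also listed.

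Other genes of the pathway were taken from a list of 88, which shares no gene with the 42. With Nkx2-1 deletion 15 of 88 (17.0%) were near a summit, against the 13.1% of all genes, in wildtype 3 (3.41% against 2.85%) and with ectopic Sox2 1 (1.14% against 1.53%). Per Mb of window the list held 1.24 summits with Nkx2-1 deletion (0.723 to 1.99), beside 1.18 over all protein-coding windows. The genes near a summit were mostly cytoplasmic components (6 of 15) and nuclear cofactors (5 of 16), with 1 of 8 other receptors, 1 of 11 target genes, 2 of 12 genes of planar polarity and other branches, and 0 of 20 further inhibitors.

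Btrc and Lrp6 had the strongest summits of that list. Btrc, the ubiquitin ligase subunit that marks beta-catenin for degradation, had a summit inside the gene with 82 fragments (65.2 to 102), a fold of 14.9 and a −log10 q of 29.0, ranked 11 of 2589. Lrp6, the Wnt co-receptor, was 42.6 kb from a summit of 83 fragments (66.1 to 103) and −log10 q 25.4, which lay inside Bcl2l14. Amer1, a membrane anchor of the destruction complex, had a summit 1.36 kb from the gene (66 fragments, −log10 q 11.8). Tnks2, a tankyrase that promotes turnover of Axin proteins, had one 1.15 kb upstream (46 fragments, −log10 q 8.67). Ctbp2, Apc2, Cd44, Tle1, Vangl1 and Prickle1 followed, with −log10 q from 8.18 down to 5.06. Btrc and Tnks2 lie on chromosome 19.

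Tle1, a Groucho family corepressor that binds Tcf/Lef factors, was the 1 gene of either list near a summit in all 3 libraries, but not at 1 shared place. A region 33.0 kb upstream was listed in wildtype (22 fragments, interval 13.8 to 33.3) and with ectopic Sox2 (22 fragments, same interval), with a depth-scaled ratio of wildtype to ectopic Sox2 of 0.793 (0.419 to 1.5). A region inside the gene was listed in wildtype (16 fragments) and with Nkx2-1 deletion (27 fragments), with a ratio of 1.12 (0.582 to 2.22). Apc2 shared a site between wildtype (19 fragments) and Nkx2-1 deletion (31 fragments), at a ratio of 1.08 (0.593 to 2.03), though that site lies inside Reep6 with 9 protein-coding genes, Apc2 included, within 50 kb. Tle4, another Groucho family gene, had a summit in wildtype alone (11 fragments, −log10 q 2.89). The intervals of these ratios all include 1.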

How the data were processed

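Sox2 ChIP-seq was analysed from 3 of 9 libraries. Input DNA and IgG were not analysed here. The submitters' processing notes name Bowtie2 2.2.9, SAMtools 1.4, MACS2 2.1.1, HOMER 4.8.3 and build mm10. The authors deposited 1 narrowPeak list per library, with a score, a fold ratio to local control background, a −log10 p and a −log10 q per summit, and positions in bp. Which control and threshold were used is not given in the sources used here. Positions are printed counting from 1.

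MACS2 writes the fold with a pseudocount of 1 and p as a Poisson tail, so whole fragments and the control background were solved from both (tolerance 0.002 in −log10 p) with scipy 1.17.1. This gave a unique solution for 99.3% of wildtype, 100% of ectopic Sox2 and 99.5% of Nkx2-1 deleted summits, and for all summits near the named genes. The procedure was tested on simulated data. Depth is the lowest (genome-wide) background over the value of 1 fragment. Intervals are 95% and cover counting error only.

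Start sites and strand came from RefSeq promoter windows, found for 30 of the 42 genes. Regions shared between lists overlap by at least 1 bp. All genes near a summit are named, with those just outside 50 kb; further genes given by distance alone were picked after their values were seen. Of the further 88 genes, those in the wildtype or ectopic Sox2 list and the 10 of highest −log10 q are named. Members, roles and lists were chosen with earlier results of these data known.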

Additional observations from a re-analysis of the deposited data

How the results depend on the processing

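No paired analysis was possible because each condition has 1 library. Counts of the 42 genes are given for wildtype, ectopic Sox2 and Nkx2-1 deletion, with 2, 1 and 10 genes within 50 kb. Within 10 kb the Nkx2-1 deleted count was 5 and wildtype 1, with Frizzled genes at 0 in both and inhibitors at 1 with Nkx2-1 deletion. The shares of all genes were 6.46% and 1.37%. Within 100 kb Nkx2-1 deletion gave 15 genes (20.7% of all genes), with 5 Frizzled receptors and 1 Lgr receptor, and wildtype gained 1 ligand, Wnt16 (4.66% of all genes). By nearest gene at any distance, ectopic Sox2 gave 2 genes (Wnt4 and the Frizzled gene Fzd1, 1 of 10), wildtype had 2 Frizzled genes, and Ctnnb1 counted as 1 of 1 with Nkx2-1 deletion, where the shares of all genes were 1.02%, 2.19% and 8.51%. When −log10 q had to reach 5, the counts were 0 in wildtype (Frizzled 0, Tcf/Lef 0), 0 with ectopic Sox2 (ligands 0), and 1 inhibitor, Axin2, with Nkx2-1 deletion. The shares of all genes were 1.87%, 1.18% and 8.83% in that order. With lists of equal length the Nkx2-1 deleted count was 2, with 1 ligand, 1 Frizzled receptor, 0 Tcf/Lef factors and 0 inhibitors, and wildtype had 0 (Frizzled 0, Tcf/Lef 0). The shares of all genes were 1.48% and 1.41%. Without chromosome 19, chosen after the data were seen, 1 Tcf/Lef factor remained with Nkx2-1 deletion, and 9 of the 42 genes, against 12.4% of all genes. Of the further 88 genes, the Nkx2-1 deleted count was 2 with lists of equal length (15 within 50 kb), against 1.48% of all genes. Wildtype had 6 within 100 kb (3 within 50 kb), against 4.66%. Ectopic Sox2 had 0 within 10 kb and 2 by nearest gene (1 within 50 kb), against 0.736% and 1.02%. Shorter windows and lists leave fewer summits by construction. A fold of at least 5, or leaving out regions found in all 3 lists, moved no count by more than 1.5 times. Without scaling for depth, the Fzd4 ratio rose from 1.33 to 2.00, with an interval (1.12 to 3.67) that no longer includes 1, and the Tcf7 ratio from 1.12 to 1.69 (0.877 to 3.35). Scaled by the 62 regions found in all 3 lists, whose median unscaled ratio was 1.89, the Fzd4 ratio was 1.06 (0.595 to 1.94). The Tcf7 ratio was 0.893 (0.464 to 1.77) by that scaling, against 1.12 by depth.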
